A study of Homo sapiens with 21 samples.

Results

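Caspases are the cysteine proteases of programmed cell death and of inflammation, and 7 of their genes were examined here: CASP1, CASP2, CASP4, CASP6, CASP8, CASP9 and CASP10. They were chosen by name, with earlier results of these data known. Their probe sets are those whose only gene symbol in the array's annotation table is one of these 7. Each of the 7 genes had 1 probe set, so no choice between probe sets was needed. They are 7 of 26947 probe sets on the array and 7 of 18374 genes with a symbol of their own there.

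The cells were U-87MG, an established line of human glioblastoma, and whole-transcript gene arrays were hybridised with total RNA of cultures 24 h after plating. The vector group consisted of 3 clones with stable empty vector, named V8, V17 and V22, and the parkin group of 3 clones with stable parkin, named PK7, PK19 and PK25. Parkin tags proteins with ubiquitin and is best known for its part in the clearance of damaged mitochondria; the study asked how it affects the growth of glioma cells. There were 3 arrays per clone and array series, 12 vector and 9 parkin arrays in all. V8 and V17 belonged to a first series, the parkin clones to a second and V22 to both, as the prefixes of the scanner file names were read here. Arrays are numbered as sets 1 to 3, except that V22 has sets 4 to 6 in the second series. All 6 lines derive from U-87MG, each is 1 clone, and the level of the introduced transcript is not analysed here. The labels do not say whether arrays of a clone came from separate cultures, so p-values taken over arrays reflect array-to-array spread only, which may be technical.

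Most caspases are made as inactive precursors. Initiator caspases (CASP2, CASP8, CASP9 and CASP10) are activated on large adaptor complexes: CASP9 on the apoptosome after cytochrome c leaves mitochondria, CASP8 and CASP10 at death receptors, and CASP2 on a platform called the PIDDosome. Executioner caspases, of which CASP6 cleaves nuclear lamins, then cut structural and repair proteins. Inflammatory caspases (CASP1 and CASP4) process cytokine precursors and open membrane pores, CASP1 on inflammasomes and CASP4 after it senses bacterial lipopolysaccharide. Much of this control acts on the protein, and the arrays measured transcripts only.

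The arrays had similar overall brightness, with log2 medians of 6.21 to 6.37. The arrays that correlated least with the others of their clone were PK25 set 3 (mean r = 0.988, median 6.37) and PK7 set 2 (mean r = 0.989, median 6.36). Caspase values without them are given where they move a result. For the other genes named below such values were not taken. Whether the calls of those genes depend on these arrays was not tested. Of the glioma and astrocyte markers, 5 of 8 were above the median of all probe sets (6.26), among them VIM at 12.76, whereas S100B was at 4.07 and OLIG2 at 5.66. None of the 10 blood, endothelium and epithelium markers was above it, and of 3 neuron markers SNAP25 was, at 7.93. SNAP25 and SYT1, another neuron marker, were highest in PK19, with clone means of 8.84 and 6.39 against 7.51 and 4.91 in V22, and their part in the results for PK19 was not tested. CASP1 and CASP10 were dim, with 34.7% and 27.5% of all probe sets below them, so small differences in these genes are the least certain.

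Promoter windows are shown for CASP2, CASP4 and CASP6, which limma called in at least 1 parkin clone and which have a window in the table used, and for CASP5, the neighbour and near-copy of CASP4. Each runs from 250 bases before to 50 bases after the annotated start, in RefSeq's annotation of GRCh38.p14. CASP2 (chr7:143288101-143288400, plus strand), CASP4 (chr11:104968525-104968824, minus strand), CASP5 (chr11:105023119-105023418, minus strand) and CASP6 (chr4:109703396-109703695, minus strand) are printed 5′ to 3′ along the gene. Capitals mark the GC box GGGCGG and the CCAAT box, each on either strand.
CASP2: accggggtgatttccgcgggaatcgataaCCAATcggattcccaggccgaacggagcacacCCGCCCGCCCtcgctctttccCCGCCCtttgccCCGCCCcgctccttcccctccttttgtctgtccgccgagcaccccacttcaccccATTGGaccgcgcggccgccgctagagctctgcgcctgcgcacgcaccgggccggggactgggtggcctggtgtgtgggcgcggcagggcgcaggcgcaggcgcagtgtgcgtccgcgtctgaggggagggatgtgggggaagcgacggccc
CASP4: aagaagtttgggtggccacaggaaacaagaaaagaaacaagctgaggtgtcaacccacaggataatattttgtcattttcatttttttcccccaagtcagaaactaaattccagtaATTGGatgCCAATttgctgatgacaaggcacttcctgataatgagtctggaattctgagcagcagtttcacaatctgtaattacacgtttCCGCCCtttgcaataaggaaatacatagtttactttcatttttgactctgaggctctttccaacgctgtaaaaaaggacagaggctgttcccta
CASP5: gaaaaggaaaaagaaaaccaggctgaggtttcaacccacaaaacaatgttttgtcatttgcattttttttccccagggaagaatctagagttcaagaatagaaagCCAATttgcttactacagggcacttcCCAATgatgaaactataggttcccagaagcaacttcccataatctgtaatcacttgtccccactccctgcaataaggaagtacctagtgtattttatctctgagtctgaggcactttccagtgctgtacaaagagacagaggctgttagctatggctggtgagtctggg
CASP6: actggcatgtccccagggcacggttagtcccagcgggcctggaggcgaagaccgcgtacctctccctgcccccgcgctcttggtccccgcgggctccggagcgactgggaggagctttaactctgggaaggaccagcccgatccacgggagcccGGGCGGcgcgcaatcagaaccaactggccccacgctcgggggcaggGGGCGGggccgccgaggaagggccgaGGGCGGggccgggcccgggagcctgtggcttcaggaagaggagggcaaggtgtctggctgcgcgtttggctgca

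The windows of CASP2 and CASP6 were GC-rich, at 71.3% and 72.0%, against a median of 58.7% over 35116 windows of the same length. CASP2 held 4 GC boxes, of which a pair overlap, and 2 CCAAT boxes, and CASP6 held 3 GC boxes and 0 CCAAT boxes. CASP4 was at 39.7% GC, with 1 GC box and 2 CCAAT boxes, and CASP5 at 42.3%, with 0 GC boxes and 2 CCAAT boxes. Over 320 aligned columns the CASP4 and CASP5 windows were 67.2% identical, against 40.2% for CASP4 with CASP6 and 40.8% for CASP4 with CASP2. Of all windows, 45% hold GGGCGG and 34.6% hold CCAAT, so these letters are common, and no binding is read from them. Other motifs searched on both strands were TATAAA (in 11.5% of windows), TGANTCA (7.71%), GGGA and CC parted by any 4 bases (25.6%), and a pair of GAAA parted by any 2 bases (3.57%). Of the windows printed, that of CASP5 alone held the last of these, at 2 overlapping places. Of the 7 genes, 5 had a window in the table, with 9 windows in all, and a second CASP2 window (chr7:143289338-143289637) held 0 GC boxes and 0 CCAAT boxes.

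CASP2, an initiator caspase linked to DNA damage and to errors of cell division, fell in all 3 parkin clones relative to V22. In V22 of the second series its log2 values were 9.71, 9.61 and 9.67. They were 9.27, 9.08 and 9.28 in PK7, 9.29, 9.19 and 9.02 in PK19, and 9.20, 9.32 and 9.04 in PK25. Every parkin array was thus below every V22 array of its series. The group means were 9.67 ± 0.05 in V22, 9.21 ± 0.11 in PK7, 9.17 ± 0.13 in PK19 and 9.19 ± 0.14 in PK25 (SD, n = 3 arrays each).

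The difference of CASP2 from V22 was -0.46 in PK7, 1.38-fold lower (SE 0.11, limma adjusted p = 0.0041). It was -0.50 in PK19, 1.41-fold lower (adjusted p = 0.0020), and -0.48 in PK25, 1.39-fold lower (adjusted p = 0.026). The calls in PK7 and PK19 held in 13 of 13 settings tried, with adjusted p up to 0.026 for PK7 and 0.018 for PK19. The call in PK25 held in 6 of 13. It was lost without PK25 set 1 (adjusted p = 0.077), without PK25 set 3 (-0.41, adjusted p = 0.152), without any 1 of the V22 arrays (0.068 to 0.118) and in a fit of the compared groups alone (0.166). Of all probe sets, 0.249% were called lower in each of the 3 parkin clones and 0.197% higher. The 3 comparisons share the V22 arrays.

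CASP2 stood at 9.26, 9.53 and 9.55 in V8, 9.61, 9.54 and 9.75 in V17, and 9.50, 9.60 and 9.67 in V22 of the first series. The 3 vector clones were close, and V8 set 1 alone among the 12 vector arrays lay inside the range of the 9 parkin arrays (9.02 to 9.32). V8 differed from V22 by -0.14 (SE 0.11, adjusted p = 0.534) and V17 by 0.05. The parkin clones were also close to each other in CASP2, with pairwise differences of at most 0.04 and an F test among them at adjusted p = 0.965. Set against V8 through V22, PK7 differed by -0.32 (unadjusted p = 0.046, adjusted p = 0.27), PK19 by -0.36 (adjusted p = 0.205) and PK25 by -0.34 (adjusted p = 0.328), so no parkin clone was called below V8.

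**Figure D1:**
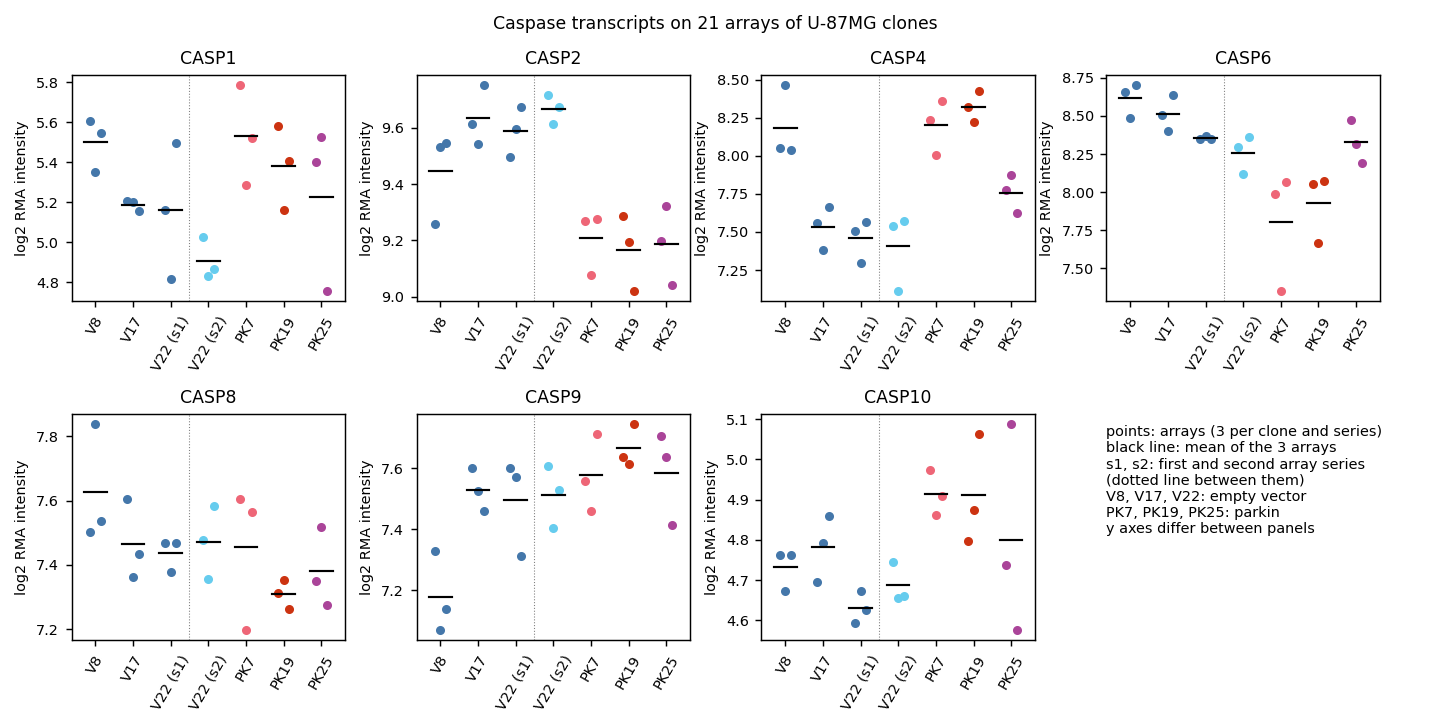
Log2 RMA intensity (y axis, a different range in each panel) of the 7 caspases on 21 arrays, by clone and array series (x axis). Points are arrays, black lines means of 3 arrays, and the dotted line parts the series. The 9 parkin arrays of CASP2 sit between 9.02 and 9.32, with 1 vector array inside that range. CASP4 is high in V8, PK7 and PK19, and CASP6 is low in PK7 and PK19.

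CASP8, the initiator at death receptors, was called in no clone. Its arrays ranged from 7.36 to 7.84 in vector clones and from 7.20 to 7.60 in parkin clones, so the groups overlapped. It differed from V22 by -0.02 in PK7, by -0.16 in PK19, by -0.09 in PK25, by 0.19 in V8 and by 0.03 in V17. The largest of these, in V8, had an interval of -0.06 to 0.43 (95%) and an adjusted p of 0.429. The difference in PK7 turned to 0.11 without PK7 set 2, whose value of 7.20 was the lowest of all arrays.

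CASP9, the initiator of the mitochondrial pathway, stood at 7.33, 7.07 and 7.14 in V8, and at 7.60, 7.57 and 7.31 in V22 of the first series. V8 was the lowest clone, and its arrays overlapped those of V22 only through V22 set 3. The difference of -0.31 (SE 0.11, adjusted p = 0.082) did not pass, but did without V8 set 1 (-0.39, adjusted p = 0.047) or without V22 set 3 (-0.41, adjusted p = 0.043). The other clones were near V22, at 0.03 (V17), 0.06 (PK7), 0.15 (PK19) and 0.07 (PK25). Against V8, the parkin clones differed by 0.38, 0.47 and 0.39 (adjusted p = 0.177, 0.079 and 0.250).

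CASP10, a close relative of CASP8 at death receptors, had a dim probe set. Its values were 4.59 to 4.86 in vector and 4.58 to 5.09 in parkin clones, and PK25 alone spanned 4.58 to 5.09. Differences from V22 were 0.23 in PK7 (adjusted p = 0.187), 0.22 in PK19 (adjusted p = 0.221), 0.11 in PK25, 0.10 in V8 and 0.15 in V17. None was called.

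CASP6, the executioner caspase in the set, was lower in PK7 than in V22 and near V22 in PK25. It stood at 8.29, 8.12 and 8.36 in V22 of the second series, 7.99, 7.35 and 8.07 in PK7, 8.05, 7.67 and 8.07 in PK19, and 8.47, 8.32 and 8.19 in PK25. All arrays of PK7 and PK19 were below those of V22, while PK25 overlapped them. In the first series it was at 8.66, 8.49 and 8.70 in V8, 8.51, 8.40 and 8.64 in V17, and 8.35, 8.37 and 8.35 in V22, so every first-series array lay above all arrays of PK7 and PK19.

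In PK7 the difference of CASP6 from V22 was -0.45, 1.37-fold lower (SE 0.15, adjusted p = 0.0485), a call that held in 6 of 13 settings. PK7 set 2, at 7.35, carried much of it: without that array the difference was -0.23 (adjusted p = 0.321). The call was also lost without any 1 of the V22 arrays, after quantile normalization (adjusted p = 0.055) and in a fit of the compared groups alone (0.182). In PK19 the difference was -0.33 (adjusted p = 0.204). It was -0.19 without PK19 set 2, whose value of 7.67 was the lowest of that clone (adjusted p = 0.589), and -0.33 with an adjusted p of 0.049 without PK7 set 2 and PK25 set 3. In PK25 it was 0.07. The F test among parkin clones called CASP6 (adjusted p = 0.033, in 12 of 17 settings), and lost it without PK25 set 1 (0.152) or set 2 (0.075), with arrays centred (0.055), with a set-number block (0.080) and in a fit of those clones alone (0.173). The difference of PK7 from PK25 was -0.52 (adjusted p = 0.024), but -0.30 without PK7 set 2 (adjusted p = 0.157), and it was not called without PK25 set 1 (0.105) or set 2 (0.051) either. PK19 differed from PK25 by -0.40 (adjusted p = 0.092), by -0.26 without PK19 set 2 (0.371) and by -0.46 without PK7 set 2 and PK25 set 3 (0.015). Against V8, PK7 differed by -0.72 (adjusted p = 0.059) and PK19 by -0.59 (adjusted p = 0.129).

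CASP4, the caspase that senses lipopolysaccharide inside cells, rose in PK7 and PK19 and also in the vector clone V8. Its values were 7.54, 7.11 and 7.57 in V22 of the second series, 8.23, 8.01 and 8.36 in PK7, and 8.32, 8.22 and 8.43 in PK19. PK25 lay between, at 7.77, 7.87 and 7.62. In the first series it was at 8.05, 8.47 and 8.04 in V8, against 7.56, 7.38 and 7.66 in V17 and 7.51, 7.30 and 7.57 in V22. V8 thus overlapped PK7 and PK19, and no V8 array overlapped those of V17 or V22.

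The difference of CASP4 from V22 was 0.79 in PK7, 1.73-fold higher (SE 0.14, adjusted p = 4.4e-04). It was 0.92 in PK19, 1.89-fold higher (adjusted p = 8.2e-05), and 0.73 in V8, 1.66-fold higher (adjusted p = 0.0020). These 3 calls held in every one of 13 settings each. V17 differed from V22 by 0.08, and PK25 by 0.35 (interval 0.05 to 0.64, adjusted p = 0.325). The clones of a group differed from each other in CASP4, by the F test among parkin clones (adjusted p = 0.011, lost only without PK25 set 3, at 0.064, in 17 settings) and among vector clones (adjusted p = 0.0026, in 16 of 16). PK19 was above PK25 by 0.57 (adjusted p = 0.0080), also without any 1 array of either clone (adjusted p up to 0.043). PK7 was above PK25 by 0.44 (adjusted p = 0.041), a call lost without PK7 set 1 (0.101) or set 3 (0.160) and without PK25 set 1 (0.086) or set 3 (0.148). Between PK7 and V8 the difference was 0.06 (interval -0.35 to 0.48) and between PK19 and V8 0.19 (-0.23 to 0.60).

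CASP1, which matures interleukin 1 beta, had a dim probe set. It stood at 5.03, 4.83 and 4.87 in V22 of the second series, 5.79, 5.29 and 5.52 in PK7, 5.58, 5.16 and 5.40 in PK19, and 5.40, 5.53 and 4.76 in PK25. First-series values were 5.61, 5.35 and 5.55 in V8, 5.21, 5.20 and 5.16 in V17, and 5.16, 4.82 and 5.50 in V22. With no shift between series, V8 and V22 there overlapped PK7 and PK19. PK7 and PK19 were above V22 of the second series in every array, and PK25 overlapped it through set 3. The difference was 0.62 in PK7 (SE 0.18, adjusted p = 0.024), 0.47 in PK19 (adjusted p = 0.104) and 0.32 in PK25 (adjusted p = 0.547), where it was 0.56 without set 3 (0.231) and 0.17 without set 2 (0.698). The call in PK7 held in 7 of 13 settings. It was lost after centring arrays on their medians (adjusted p = 0.063), after quantile normalization (0.062), without PK7 set 1 (0.117) or set 3 (0.054) and without V22 set 5 (0.081) or set 6 (0.075). In PK19, CASP1 passed in a fit of the compared groups alone (adjusted p = 0.036) and without PK7 set 2 and PK25 set 3 (0.029). In V8 it differed by 0.34 (adjusted p = 0.334), and V22 itself by -0.25 between the series. Both values depended on single V22 arrays: without set 2 they were 0.17 and -0.42, and without set 3 they were 0.51 and -0.08.

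**Figure D2:**
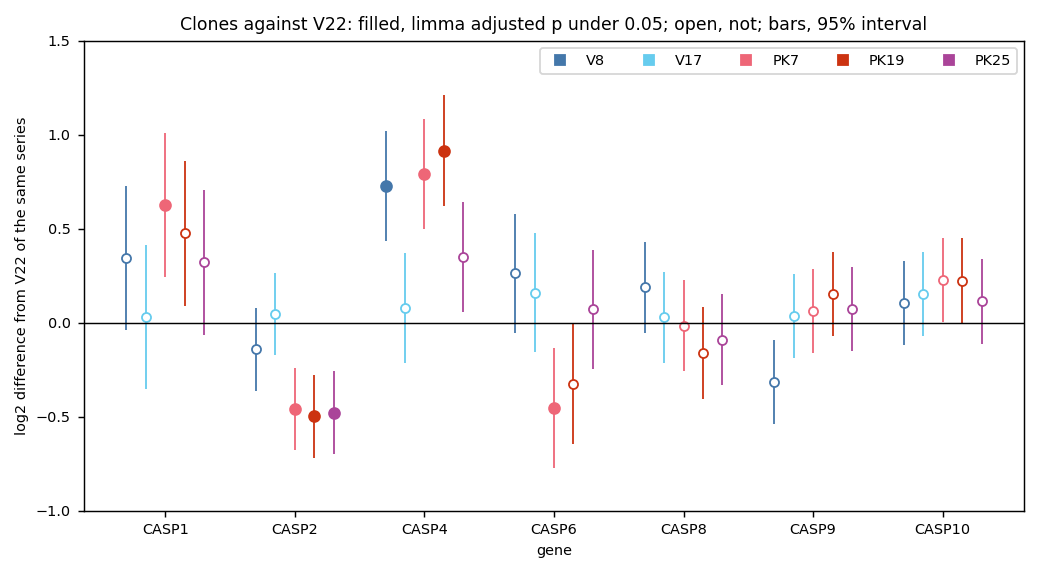
Log2 difference of each clone from V22 of the same array series (y axis) for the 7 caspases (x axis), with 95% intervals from the fit over 21 arrays. Filled points have a limma adjusted p under 0.05. CASP2 is filled in PK7, PK19 and PK25, and CASP4 in V8, PK7 and PK19.

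Over all probe sets, 15.2% were called in PK7 against V22 (7.11% higher and 8.11% lower), and 4 of the 7 caspases, with CASP1 and CASP4 higher and CASP2 and CASP6 lower. In PK19 14% were called (6.65% higher, 7.4% lower) and 2 of the 7 caspases, CASP4 higher and CASP2 lower. In PK25 1.37% were called (0.427% higher, 0.939% lower) and 1 caspase, CASP2. In V8 8% were called (3.78% higher, 4.22% lower) and 1 caspase, CASP4. In V17 limma called 0 probe sets, or 0%, with 730 at an unadjusted p under 0.05, and no caspase. Between V22 of the 2 series 0.0297% were called, 8 probe sets, and no caspase. The 7 caspases had a median difference of 0.06 for PK7, 0.15 for PK19, 0.07 for PK25 and 0.19 for V8, beside medians over all probe sets of 0.0025, -0.00045, 0.019 and -0.0034.

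The F tests called 23.6% of probe sets among parkin clones and 2 caspases, CASP4 and CASP6, and 7.56% among vector clones and 1 caspase, CASP4. Between parkin clones 15.8% differed for PK7 against PK19, with no caspase, 13.9% for PK7 against PK25, with CASP4 and CASP6, and 14.9% for PK19 against PK25, with CASP4. Against V8 through V22, 5.21% were called in PK7, 6.22% in PK19 and 1.96% in PK25, with no caspase. These contrasts between clones were added after the values were seen.

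With the clone as the unit, 3 parkin against 3 vector clone means, no caspase passed. Limma called 1 probe set there (0.00371%), with 3787 at an unadjusted p under 0.05. CASP2 had the smallest p of the 7, with vector means of 9.52, 9.71 and 9.67 (V8, V17, V22) and parkin means of 9.21, 9.17 and 9.19 (PK7, PK19, PK25), after the first series was set on the scale of the second. Its difference was -0.45 (interval -0.63 to -0.26, adjusted p = 0.306), and this SE leaves out the shared error of the link through V22. The adjusted p ranged from 0.0028 to 0.721 over 38 settings and was under the threshold in the 2 that counted arrays rather than clones. CASP6 differed by -0.38 (adjusted p = 0.347), CASP1 by 0.35 (adjusted p = 0.329) and CASP4 by 0.42 (adjusted p = 0.438), CASP4 with clone means that overlap (V8 at 8.14, PK25 at 7.76).

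The clone means of the groups did not overlap for CASP2 and CASP8, lower in parkin clones, and for CASP9, higher. Over all probe sets this was so for 10.9% lower and 12.3% higher. For CASP8 the gap was small, with means from 7.31 to 7.46 in parkin and 7.47 to 7.66 in vector clones. For CASP9 they were 7.58 to 7.66 and 7.20 to 7.55. Within the second series alone, the parkin clones differed from V22 by -0.48 in CASP2, 0.69 in CASP4, 0.47 in CASP1 and -0.24 in CASP6. In that comparison of clone means limma called 0 probe sets, or 0%, with 465 at an unadjusted p under 0.05.

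The partners of the caspases were followed in 8 lists of 56 genes, of which 50 were measured. Over all lists 6 rose and 5 fell in PK7, 7 rose and 5 fell in PK19, 1 rose in PK25, 6 rose in V8 and none passed in V17. Beside these, 7.11% of all probe sets were called higher and 8.11% lower in PK7, and 6.65% and 7.4% in PK19. The shares were 0.427% and 0.939% in PK25, and 3.78% and 4.22% in V8. Over the 50 genes the median difference was 0.0012 for PK7, 0.00035 for PK19, 0.03 for PK25 and -0.08 for V8. In the comparison of clone means none passed. IL1B is named by the rule given under the processing of the data, which picks genes by their calls. The other genes of these lists are named after their values were seen.

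Among substrates of inflammatory caspases, 1 of 3 measured genes passed, and in 4 clones. IL1B, the interleukin 1 beta precursor cut by caspase 1, was at 7.40 ± 0.24 in V22 of the second series, 9.34 ± 0.04 in PK7, 11.03 ± 0.61 in PK19 and 9.64 ± 0.90 in PK25 (SD, n = 3 arrays each). In the first series it was at 11.48 ± 0.71 in V8, 8.63 ± 0.22 in V17 and 8.51 ± 0.73 in V22. The highest clones were therefore V8, a vector clone, and PK19. Its differences from V22 were 1.95 in PK7 (adjusted p = 0.0021), 3.63 in PK19 (2.0e-06), 2.24 in PK25 (0.0075) and 2.98 in V8 (8.9e-05), and 0.13 in V17. V22 itself ranged from 7.66 to 8.98 in the first series and from 7.22 to 7.67 in the second.

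Of the caspase-1 decoys and inflammasome sensors, 9 of 11 genes were measured. None passed in PK7 and PK25, 2 rose in PK19 and 1 in V8. NLRP3, an inflammasome sensor, was at 5.78 ± 0.60 in PK19 and between 3.79 and 4.05 in the means of the other clones, a difference of 1.85 from V22. AIM2, a sensor of DNA, was higher in PK19 by 1.18 (limma adjusted p = 0.042). With no shift between series, its PK19 arrays (7.81 to 8.56) overlapped those of the vector clones V17 (7.29 to 8.32) and V8 (6.58 to 7.93). The AIM2 mean of V22 was 6.89 ± 0.38 in the series of the parkin clones and 7.42 ± 0.23 in that of V8 and V17. CARD16, a decoy of caspase 1, was higher in V8 by 0.67 (adjusted p = 0.020), with a mean of 4.07 over all arrays.

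Of the death receptors and their adaptors, 7 of 8 were measured, of which 3 rose in V8, 3 in PK7 and 2 in PK19, and none passed in PK25 or V17. TNFRSF10B, a receptor for the death ligand TRAIL, was at 9.24 ± 0.12 in V22 of the second series, 9.97 ± 0.03 in PK7, 9.93 ± 0.02 in PK19 and 9.31 ± 0.07 in PK25. In the first series it was at 10.07 ± 0.10 in V8 and 9.44 ± 0.07 in V22. The clones with high TNFRSF10B were those with high CASP4: V8, PK7 and PK19. How many other probe sets share this pattern was not counted, so no link between the 2 genes is read from it. TNFRSF1A, also from this list, departed from that pattern and was called only for V8 and PK7. PK19 stood at 9.01 ± 0.07, level with V22 of the second series (9.02 ± 0.07). PK25 had a higher mean without a call (9.31 ± 0.10), and PK7 was at 9.54 ± 0.06. CFLAR, which blocks caspase 8 at these receptors, differed by 0.41 in V8, 0.43 in PK7 and 0.55 in PK19, and by 0.07 in PK25. CASP8 and CASP10, its neighbours on chromosome 2, were called in none of these clones.

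All 13 genes of the apoptosome and mitochondrial release list were measured. In PK7 BID, which links caspase 8 to mitochondria, rose by 0.31, whereas CYCS (cytochrome c) fell by 0.42, and BCL2 and MCL1, which block mitochondrial release, fell by 0.43 and 0.55. In PK19 BID rose by 0.53, and MCL1 fell by 0.40, the pore protein BAK1 by 0.89 and PMAIP1, an inhibitor of MCL1, by 1.19. APAF1, the scaffold of the apoptosome, was higher in V8 alone among the calls, by 0.75. In PK25 and V17 none of the 13 passed.

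Both genes of the caspase-2 platform list were measured, and neither passed in any clone. The inhibitors of apoptosis had 1 call among 5 measured genes of 6, BIRC6, which fell by 0.42 in PK7. Of 8 executioner substrates, GSDME, a pore-forming gasdermin, rose in PK7 by 0.34 and in PK19 by 0.38. ACIN1, a chromatin condensation factor, fell by 0.44 and 0.55 there, and LMNB1, lamin B1, fell by 0.65 in PK19. The 3 other caspases measured, CASP5, CASP12 and CASP14, were dim (means of 3.19, 3.37 and 3.88) and none passed.

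**Figure D3:**
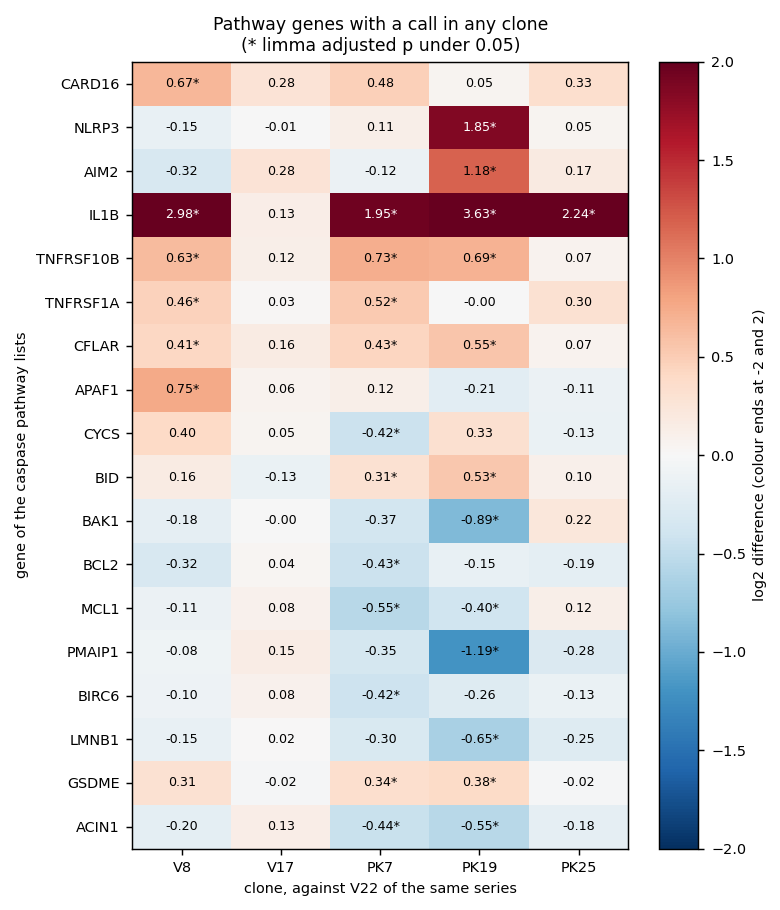
Log2 difference from V22 of the same series (colour and printed value) for the 18 genes of the caspase pathway lists called in at least 1 clone (rows), by clone (columns). Stars mark a limma adjusted p under 0.05. V17 has no star, PK25 has 1 (IL1B), and TNFRSF10B and CFLAR are starred in V8, PK7 and PK19. TNFRSF1A is starred in V8 and PK7 only.

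The position of the genes was read from the RefSeq gene order. CASP4 and CASP1 lie in a cluster on chromosome 11 with CASP12, CASP5 and CARD16. The 20 nearest measured genes around CASP4 had median differences of 0.11 in PK7, 0.02 in PK19 and 0.09 in V8, where CASP4 itself was at 0.79, 0.92 and 0.73. Of these 20 neighbours, 3 were called higher in each of those clones and none lower. Over all probe sets 7.11%, 6.65% and 3.78% were called higher in PK7, PK19 and V8. The 3 were not the same genes throughout: MMP3, CASP1 and GUCY1A2 in PK7, and MMP3, MMP10 and GUCY1A2 in PK19. In V8 they were MMP1, MMP3 and CARD16, and all were named after their values were seen. CASP5 and CASP12, directly beside CASP4, were at 0.12 and 0.07 in PK7, 0.06 and 0.03 in PK19, and -0.14 and -0.19 in V8. Both were dim, with means of 3.19 and 3.37, as were others of the 20 neighbours such as CARD18 (3.14). Values of such dim genes show little of any shift. MMP3, a matrix metalloprotease gene some places away and named after its values were seen, differed by 3.47 in PK7, 4.26 in PK19 and 2.95 in V8. CASP4 resembles CASP5 in sequence, and CASP1 resembles CARD16, so a probe set may also capture its relative's transcript, which was not tested.

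**Figure D4:**
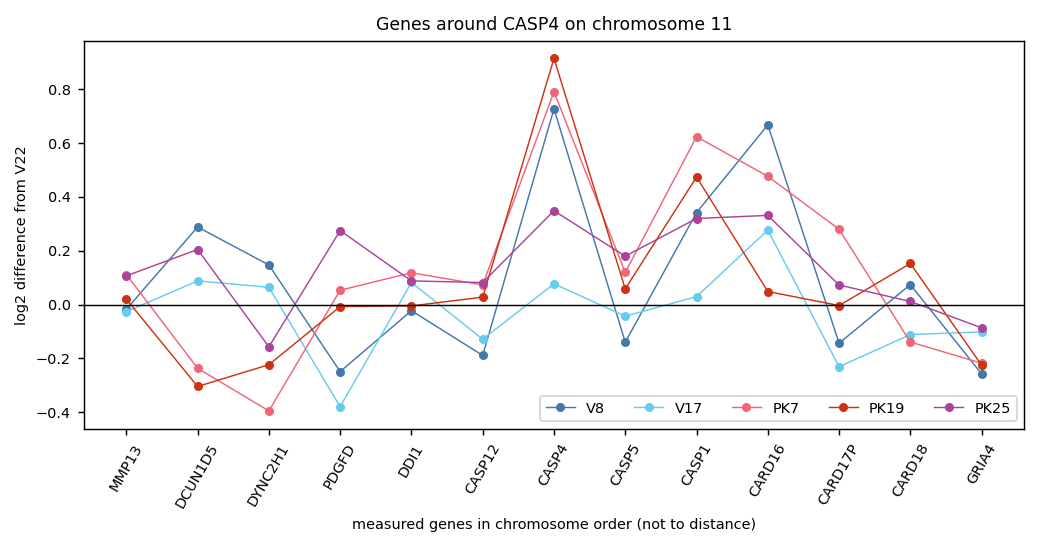
Log2 difference from V22 of the same series (y axis) of the measured genes around CASP4 on chromosome 11, in chromosome order and not to distance (x axis), with 1 line per clone. CASP4 stands at 0.92 in PK19 and 0.35 in PK25, while its direct neighbours CASP12 and CASP5 lie between -0.19 and 0.18 in all 5 clones. Both neighbours are dim, with means of 3.37 and 3.19.

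Around CASP2 on chromosome 7, the 20 nearest measured genes had median differences of 0.03 in PK7, -0.01 in PK19 and 0.10 in PK25. Many of these genes were dim, such as OR9A2 and TAS2R39 (means of 3.32 and 3.30), so these medians say little about the region. TMEM139 and CLCN1, directly beside CASP2, were called in no clone. Their means of 5.23 and 5.55 were below the median of all probe sets (6.26). Of the 20, ZYX (zyxin, a protein of focal adhesions), which lies 3 places from CASP2, fell by 0.74 in PK7, 0.81 in PK19 and 0.39 in PK25, and by 0.29 in V8. GSTK1, 2 places away on the other side, fell by 1.06 in PK7, 0.61 in PK25 and 0.48 in V8, and was at 0.25 in PK19. ZYX and GSTK1 were brighter, with means of 10.42 and 9.01, and both were named after their values were seen. Around CASP6 on chromosome 4 the neighbours' median was -0.13 in PK7 and -0.06 in PK19. There 3 of 20 were called lower and 2 higher in PK7, beside 8.11% and 7.11% of all probe sets. In RefSeq CASP6 overlaps MCUB, a gene of the mitochondrial calcium channel, and whether their probe sets share transcripts was not tested. MCUB fell by 1.06 in PK7 (adjusted p = 3.5e-05) and was at -0.22 in PK19 and -0.28 in PK25. CFI, directly on the other side of CASP6, went the other way in PK7. It rose there by 1.51 (limma adjusted p = 0.0028) and was at 0.15 in PK19 and -0.0015 in PK25.

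As a description over the 21 arrays, with the first series set on the scale of the second, CASP1 and CASP4 had the highest correlation of any pair of the 7 (r = 0.75) and CASP2 and CASP4 the lowest (r = -0.59). Arrays of a clone share their cells, so these values mostly order 6 clones. By the same measure the 3 genes most like each caspase, among genes with a mean log2 value above 7, were KDR (0.93), MYH9 (0.92) and MOK (0.92) for CASP2, and FKBP14 (0.96), MGST1 (0.95) and RAB11A (0.95) for CASP4. For CASP6 they were DNTTIP2 (0.95), METTL5 (0.93) and SVIP (0.93), and for CASP9 EFTUD2 (0.86), MTMR14 (0.85) and SRP68 (0.85). CASP8 was nearest to RBM41 (0.86), MPHOSPH9 (0.85) and NUP37 (0.84), and CASP1 to MTFMT (0.86), ZNF609 (0.82) and ATP6V1A (0.81). The weakest matches were those of CASP10, SEMA3C (0.71), MTRF1 (0.70) and UBE2A (0.70).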

How the data were processed

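The values are RMA intensities that the authors deposited on a linear scale, 26947 probe sets on 21 arrays. RMA is named per the submitters' processing notes with no version, and whether the arrays were processed as 1 set is not given in the sources used here. They were turned into log2 values, with no pseudocount or filter. The annotation table gives 1 symbol for 19305 probe sets, several for 1750, and does not list 5892.

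Limma 3.58.1 (lmFit, eBayes) in R 4.3.3 was fitted to all probe sets with 7 groups (clone and series), and gave each clone against V22 of its series, V22 between series and F tests among clones. Clone means were compared 3 against 3, with first-series arrays shifted per probe set by the difference of V22 between series, and within the second series, where the lone vector clone was assumed to vary like the parkin clones. P-values were Benjamini-Hochberg adjusted over all probe sets and called under 0.05. Arrays have no depth, so their number limits the precision. The code of the fits was run on simulated data with planted differences, but with no other spread between clones and no shift between series. That run checks the code and not how the fits behave on real clones.

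The members and gene lists were chosen with earlier results of these data known. All 7 members were named. Of the lists, the rule named genes called between groups of clones or, failing those, up to 3 per list called the same way in each parkin clone. Alternatives covered normalization, pseudocount, dim probe sets, fit and arrays left out.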

Additional observations from a re-analysis of the deposited data

Results flagged for a closer look

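CASP4 and CASP6 differed between parkin clones by a test of the difference itself, the contrast between clones in limma's fit over 21 arrays. For CASP4 PK19 was above PK25 by 0.567 (adjusted p = 0.0080). PK7 was above PK25 by 0.442 (adjusted p = 0.041), which did not pass without any 1 of PK7 sets 1 and 3 and PK25 sets 1 and 3 (adjusted p from 0.086 to 0.160). For CASP6 the difference of PK7 from PK25 was -0.524 (adjusted p = 0.024), but -0.299 without PK7 set 2 (adjusted p = 0.157), and it did not pass without PK25 set 1 (0.105) or set 2 (0.051). No array stood apart from the others of its group in any of the 14 sets of arrays tested. With 3 arrays per clone and series such a test has little power, so no conclusion is drawn from it.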

How the results depend on the processing

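Of 1215 values of the 7 caspases under alternative settings, 1148 kept their direction and their side of the threshold, 35 lost a call, 11 gained one and 21, all without a call, changed sign. Most of the 1215 were of comparisons with no call to lose, so they do not measure how stable the calls are. The 35 losses fell on CASP1 and CASP6 in PK7 and CASP2 in PK25. They also fell on CASP4 and CASP6 in the F test among parkin clones and in PK7 against PK25. After quantile normalization 2 caspases were called in PK7. With arrays centred, V22 between series gave 3 probe sets and the F test among parkin clones 1 caspase. With a pseudocount of 16 these were 15 probe sets, and the F test among vector clones called 2 caspases. A trended, robust fit gave 17 for V22 between series. Fits of the compared groups alone gave 0 for V22 between series, 1319 for V8, 52 probe sets and 0 caspases for PK25, and 1 caspase among parkin clones. Without PK7 set 2 and PK25 set 3, a choice made after seeing the data, PK19 had 4 caspases, PK25 216 probe sets and 0 caspases, CASP8 in PK7 was at 0.113 and CASP6 in PK7 against PK19 at 0.097. For parkin against vector clones, arrays as observations with the clone as a random block gave 844 probe sets and 1 caspase, CASP2 (-0.45, adjusted p = 0.0043). Leaving out the dimmest 30% of probe sets removed CASP10.

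The set numbers fell short of the level asked of a pairing, every pair over 0.1. Same-numbered vector arrays correlated at 0.0591 to 0.216, all above those of different number (-0.141 to 0.0533), a hint from the data and not from the design. Parkin arrays did so at -0.0917 to 0.381, against -0.365 to 0.323. Fits that took the set number as a replicate block gave V8 1231 probe sets in place of 2155, the F test among parkin clones 1 caspase, CASP4 (CASP6 was at adjusted p = 0.080) and, for parkin against vector clones on sets 1 to 3, 4097 probe sets and 2 caspases (CASP2 at -0.37, CASP6 at -0.47). V22 of the second series shares no set number with the parkin clones, so no such fit was possible there.

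Leaving out 1 array or clone at a time, counts ranged from 1435 to 1993 probe sets and 1 to 2 caspases in V8, 134 to 561 and 0 to 1 in PK25, 2 to 3 caspases in PK7, 1 to 2 in each F test, 0 to 5 probe sets for V22 between series and 1 to 38 for parkin against vector clones. Uncalled differences that changed sign were, in V17, CASP1 (-0.14 to 0.20), CASP2 (-0.013 to 0.093), CASP4 (-0.0021 to 0.15), CASP8 (-0.041 to 0.080) and CASP9 (-0.057 to 0.087). In V22 between series they were CASP4 (-0.13 to 0.098), CASP8 (-0.022 to 0.092) and CASP9 (-0.073 to 0.073), in PK7 CASP8 (-0.091 to 0.11) and CASP9 (-0.0044 to 0.12), in PK25 CASP6 (-0.0023 to 0.14) and CASP10 (-0.031 to 0.23), and in PK7 against PK19 CASP6 (-0.26 to 0.097). Beyond fewer arrays or tested groups, the cause was not tested.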
